A study of Mus musculus with 6 samples.

Results

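The acute phase proteins are plasma proteins that the liver makes at a different rate during inflammation, infection or injury. Their transcripts were followed here for 10 genes, taken from the deposited count table by gene symbol: *Saa1*, *Saa2*, *Saa3*, *Orm1*, *Orm2*, *Hp*, *Hpx*, *Lcn2*, *Crp* and *Apcs*. Each symbol matched 1 of the 54532 genes listed, and 10 of 10 passed the filter on low counts that left 15449 genes for testing. The comparison asks how these transcripts differed in the liver between mice with induced deletion of *Spns1* and controls. SPNS1 is a lysosomal transporter of lysolipids.

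In the acute phase response, interleukin-6 and related cytokines act on hepatocytes through the shared receptor chain gp130, the JAK kinases and STAT3, while interleukin-1 and TNF act through NF-kB and the C/EBP factors. Transcripts of positive acute phase proteins, such as serum amyloid A and haptoglobin, then rise, and transcripts of negative ones, such as albumin, fall. Mouse serum amyloid A 1 and 2 can rise from near silence, whereas C-reactive protein is only a weak responder in mice, in contrast to humans.

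Livers of 6 mice were sequenced, 1 library per mouse, 3 from each group. The g*Spns1*-cKO mice were *Spns1* fl/fl mice with Rosa26Cre-ERT2, a tamoxifen-dependent Cre at a locus active throughout the body, so that deletion was not directed at 1 cell type of the liver or at the liver alone. How completely the gene was deleted in each cell type was not measured here. Tamoxifen was injected intraperitoneally at 50 mg/kg on postnatal days 11, 13 and 15 to remove exon 3, on a C57BL/6 background. The controls are *Spns1* fl/fl littermates without Cre in those methods, whereas the sample labels call them wild type. Age at liver collection, the sex of each mouse and whether controls received tamoxifen are not given for the RNA-Seq samples in the sources used here. By the methods only g*Spns1*-cKO mice carried Cre, so effects of Cre and of *Spns1* deletion cannot be told apart. The same holds for tamoxifen if controls did not receive it.

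The libraries held between 30350002 and 35295611 counts, so that 3 counts, taken as the floor of detection, correspond to between 0.0762 and 0.118 CPM (counts over a library size scaled by TMM factors, which adjust for differences in composition). *Spns1* itself stood at 35.8, 50.7 and 34.6 CPM in control replicates 1, 2 and 3, and at 17.8, 30.6 and 17.7 CPM in g*Spns1*-cKO replicates 1, 2 and 3. The groups did not overlap, and the log2 fold change was -0.87 (SE 0.25, adjusted p = 0.0300, edgeR), over reads of the whole gene and not of the deleted exon alone. At that threshold of 0.05 on the adjusted p, edgeR called 6452 genes, 3286 of them higher in the g*Spns1*-cKO group and 3166 lower. Summed CPM of 18 hepatocyte markers ran from 106033 to 127912 in control livers and from 69641 to 79304 in g*Spns1*-cKO livers. Of the 18, 10 were lower and 0 higher, beside 20.5% and 21.3% of all genes tested. Where libraries were scaled by total counts only, 3 were lower and 2 higher, beside 6.28% and 47.2% of all genes. In whole liver, fewer cells of a type and less RNA per cell cannot be told apart.

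Of the 10 acute phase genes, 4 passed an adjusted p under 0.05, all in the lower direction in g*Spns1*-cKO livers (*Saa3*, *Hp*, *Orm1* and *Crp*). Of all genes tested, 41.8% passed in either direction and 20.5% were lower. None was higher, against 21.3% of all genes, and 0 were higher at an unadjusted p under 0.05 or by DESeq2 or limma-voom. The log2 fold change was negative for 9 of 10, with a median of -1.60, beside 0.01 over all genes tested. Control replicates 2 and 3 both lay above all g*Spns1*-cKO livers in 9 of 10 genes, which held for 30.4% of all genes. Control replicate 1 was the lowest control in 10 of 10, which held for 33.3% of all genes. Both counts were chosen after the values were seen, and genes that share an order of mice are not separate observations. The groups were fully separated only for *Saa3* and *Crp*, 2 of 10, beside 27% of all genes tested in the lower direction and 54.1% in either. Together the 10 genes took 0.704, 2.75 and 3.12% of all counts in control replicates 1, 2 and 3, and 1.39, 1.08 and 1.23% in g*Spns1*-cKO replicates 1, 2 and 3.

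**Figure D1:**
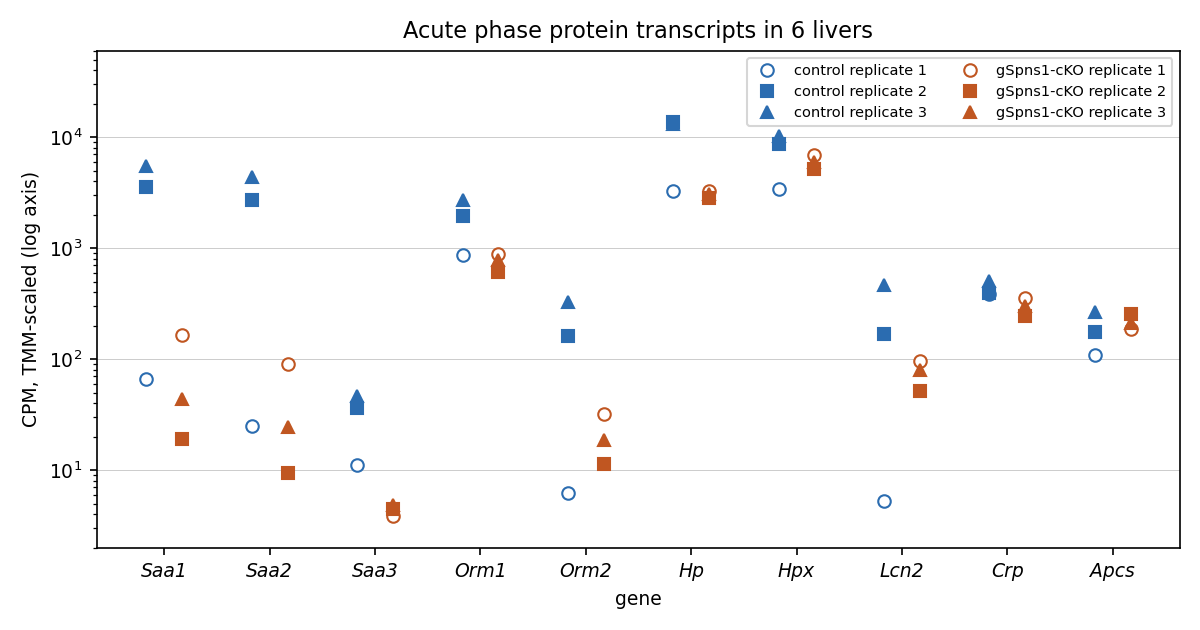
Level of each acute phase gene in each of 6 livers, in TMM-scaled CPM on a log axis. Each point is 1 mouse, blue for control and orange for g*Spns1*-cKO, with the replicate shown by the marker. Control replicates 2 and 3 lie above all g*Spns1*-cKO livers for 9 of 10 genes, and the open blue circle, control replicate 1, is the lowest control for 10 of 10.

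Serum amyloid A proteins are small apolipoproteins that bind to high-density lipoprotein during inflammation. The cluster lies on chromosome 7, where *Saa3*, *Saa1* and *Saa2* span 42316 bases (GRCm38). *Saa1* (7:46740497-46742980) and *Saa2* (7:46751790-46754313) are transcribed away from each other from starts 8810 bases apart, and *Saa3* (7:46711998-46715700) lies on the minus strand like *Saa1*. The 250 bases before the RefSeq starts of *Saa1*, *Saa2* and *Saa3* are shown because the 3 genes differed in level and in their spread between mice. They come from RefSeq (GRCm38.p6), at chr7:46742981-46743230 on the minus strand, chr7:46751583-46751832 on the plus strand and chr7:46715677-46715926 on the minus strand. RefSeq starts *Saa2* and *Saa3* further downstream than the count table does, so the last bases of those 2 stretches lie within the genes as the table gives them. Capitals mark matches to TTNNGNAA on either strand, a loose form of the C/EBP motif, which 36.8% of 32817 RefSeq promoters of the same length also hold.
Saa1: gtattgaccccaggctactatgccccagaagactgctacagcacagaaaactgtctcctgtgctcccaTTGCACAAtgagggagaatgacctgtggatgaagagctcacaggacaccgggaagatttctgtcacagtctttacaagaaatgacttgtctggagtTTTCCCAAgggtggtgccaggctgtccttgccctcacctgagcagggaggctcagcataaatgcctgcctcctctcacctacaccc
Saa2: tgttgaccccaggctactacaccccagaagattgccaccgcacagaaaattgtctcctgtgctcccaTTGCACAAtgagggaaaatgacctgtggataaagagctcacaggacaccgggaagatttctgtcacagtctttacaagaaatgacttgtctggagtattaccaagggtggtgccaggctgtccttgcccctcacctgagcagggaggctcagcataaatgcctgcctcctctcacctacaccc
Saa3: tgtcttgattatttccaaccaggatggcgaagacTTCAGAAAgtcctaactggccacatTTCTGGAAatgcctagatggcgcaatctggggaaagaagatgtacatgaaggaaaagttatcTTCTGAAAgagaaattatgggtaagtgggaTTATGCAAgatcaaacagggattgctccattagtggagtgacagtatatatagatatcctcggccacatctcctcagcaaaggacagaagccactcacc
The *Saa1* and *Saa2* stretches shared 95.6% of 249 aligned bases, and *Saa1* and *Saa3* shared 59.4%. *Saa1* held 2 matches, *Saa2* 1 and *Saa3* 4, and a match is a description of letters only, not a binding site. Of the 8 genes with a promoter in the table, 7 held this motif (not *Apcs*). GGG and CC with any 5 bases between, a loose NF-kB motif, was found in 4 (*Saa1*, *Saa2*, *Lcn2* and *Crp*, the latter with overlapping matches) and in 45.8% of all promoters, TTCNNNGAA, a STAT motif, in 1 (*Apcs*) and in 7%, and TATAAA in 2 (*Orm2* and *Crp*) and in 12.4%, all on either strand.

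*Saa1* stood at 66.3, 3533 and 5459 CPM in control replicates 1, 2 and 3, and at 165, 19.0 and 44.1 CPM in g*Spns1*-cKO replicates 1, 2 and 3. Control replicates 2 and 3 were far above every other liver, while control replicate 1 lay between g*Spns1*-cKO replicates 3 and 1. The group means were 3019 ± 2733 and 76.0 ± 78.1 CPM (SD, n = 3 each). The log2 fold change of -5.31 (SE 1.99) did not pass the test (adjusted p = 0.104, edgeR). *Saa2* followed the same order of mice, with 24.8, 2723 and 4343 CPM in control replicates 1, 2 and 3, and 90.6, 9.43 and 24.6 CPM in g*Spns1*-cKO replicates 1, 2 and 3. Its log2 fold change was -5.83 (SE 2.23, adjusted p = 0.109). The 2 transcripts are 94.4% identical and share 9.1% of their 50-base windows, so reads could have been split between them or dropped. Summed before the fit, *Saa1* and *Saa2* gave a log2 fold change of -5.52 (SE 2.08, adjusted p = 0.105), which passed by DESeq2 (-5.53, adjusted p = 0.00122) and by limma-voom (-4.48, adjusted p = 0.0347). The count of *Saa1* over that of *Saa2* was 2.67 in control replicate 1, 1.30 and 1.26 in control replicates 2 and 3, and from 1.80 to 2.01 in the g*Spns1*-cKO group.

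*Saa3*, the serum amyloid A gene that macrophages and adipocytes also transcribe, was 1 of the 2 genes with separated groups. It stood at 11.2, 36.5 and 46.3 CPM in control replicates 1, 2 and 3, and at 3.83, 4.48 and 4.85 CPM in g*Spns1*-cKO replicates 1, 2 and 3. Each g*Spns1*-cKO value was below each control value, and these values varied by 1.27-fold among themselves against 4.14-fold among controls. The transcript fell 7.13-fold (log2 fold change -2.83, SE 0.58, adjusted p = 0.0156). The call was lost without any 1 of the 3 g*Spns1*-cKO mice (adjusted p = 0.0698 to 0.0783) and held without each control (4.40e-06 to 0.0441). *Saa4*, a serum amyloid A gene of the same cluster that is made at a steady rate, is not among the 10 genes and was named after its values were seen. It stood at 280, 622 and 567 CPM in control replicates 1, 2 and 3 and at 120, 101 and 108 CPM in g*Spns1*-cKO replicates 1, 2 and 3, with a log2 fold change of -2.16 (SE 0.28, adjusted p = 0.000793) and no overlap.

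Orosomucoids, or alpha-1-acid glycoproteins, are lipocalins that carry lipophilic compounds in plasma. *Orm1* (4:63344560-63348163) and *Orm2* (4:63362449-63365878) lie on chromosome 4, both on the plus strand, within 21319 bases. *Orm1* stood at 870, 1931 and 2705 CPM in control replicates 1, 2 and 3, and at 892, 607 and 777 CPM in g*Spns1*-cKO replicates 1, 2 and 3. Control replicate 1 fell within the g*Spns1*-cKO range. *Orm1* was 2.42-fold lower in g*Spns1*-cKO livers (log2 fold change -1.27, SE 0.40, adjusted p = 0.0405). That call held without control replicate 1 (adjusted p = 0.000626) and was lost without any other mouse (0.0751 to 0.143).

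The stretch before *Orm2* is shown because this gene had the wider spread of the pair. It lies at chr4:63362199-63362448 on the plus strand, with capitals as above, and held 2 matches, of which the first reads the same on both strands. *Orm1* was not in the promoter table.
Orm2: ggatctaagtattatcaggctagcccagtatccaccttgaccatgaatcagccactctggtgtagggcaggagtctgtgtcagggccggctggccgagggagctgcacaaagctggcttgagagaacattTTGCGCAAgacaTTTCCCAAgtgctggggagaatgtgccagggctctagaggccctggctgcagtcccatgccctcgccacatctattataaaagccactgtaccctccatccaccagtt
*Orm2* stood at 6.26, 161 and 325 CPM in control replicates 1, 2 and 3, and at 32.3, 11.4 and 18.8 CPM in g*Spns1*-cKO replicates 1, 2 and 3. Control replicate 1 was the lowest of all 6 livers, and control replicates 2 and 3 the highest. The log2 fold change of -2.98 (SE 1.46) did not pass the test (adjusted p = 0.183). The *Orm1* and *Orm2* transcripts are 91% identical and share 20.4% of 50-base windows, and the count of *Orm1* over that of *Orm2* was 139 in control replicate 1, 12 and 8.32 in control replicates 2 and 3, and from 27.6 to 53.5 in g*Spns1*-cKO livers. Both also resemble *Orm3*, which stood at 1.49, 2.60 and 7.11 CPM in control replicates 1, 2 and 3 and from 9.27 to 12.8 CPM in g*Spns1*-cKO livers, without passing the test (log2 fold change 1.55, SE 0.55, adjusted p = 0.0721). Summed before the fit, the 3 genes gave -1.34 (SE 0.44, adjusted p = 0.0524), and -1.71 without control replicate 1 (adjusted p = 0.000591).

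Haptoglobin and hemopexin remove free hemoglobin and free heme from plasma. *Hp* (8:109575128-109579172) had the highest mean CPM of the 10 genes in control livers, with 3246, 13730 and 13062 CPM in control replicates 1, 2 and 3, and 3291, 2809 and 3075 CPM in g*Spns1*-cKO replicates 1, 2 and 3. Control replicate 1 was again within the g*Spns1*-cKO range. *Hp* was 3.27-fold lower in g*Spns1*-cKO livers (log2 fold change -1.71, SE 0.53, adjusted p = 0.0450). The call held without control replicate 1 (adjusted p = 5.63e-05) and was lost without any other mouse (0.0973 to 0.154). *Hpx* (7:105591613-105600137) stood at 3408, 8687 and 10170 CPM in control replicates 1, 2 and 3, and at 6935, 5147 and 6024 CPM in g*Spns1*-cKO replicates 1, 2 and 3. All g*Spns1*-cKO livers lay above control replicate 1 and below the other controls. Its log2 fold change was -0.30 (SE 0.37, adjusted p = 0.551), and 0.15 where libraries were scaled by their total counts only (adjusted p = 0.739). In FPKM, which are scaled by gene length, the level of *Hp* was 0.889, 1.48 and 1.20 times that of *Hpx* in control replicates 1, 2 and 3, and from 0.443 to 0.509 times in g*Spns1*-cKO livers.

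*Lcn2* (2:32384633-32388252) encodes lipocalin-2, which binds iron-loaded siderophores of bacteria and is made by hepatocytes and neutrophils. It stood at 5.33, 167 and 469 CPM in control replicates 1, 2 and 3, and at 96.8, 51.4 and 80.2 CPM in g*Spns1*-cKO replicates 1, 2 and 3. All g*Spns1*-cKO livers were above control replicate 1, by between 9.63 and 18.1 times, and below the other controls. The log2 fold change was -1.49 (SE 1.47, adjusted p = 0.477), with an SE nearly as large as the difference itself. Of 16 neutrophil markers, 7 passed the filter on low counts. Of these 7, 4 were higher in g*Spns1*-cKO livers and 0 lower, beside 21.3% and 20.5% of all genes. The list had summed CPM of 5.83, 31.2 and 22.6 in control replicates 1, 2 and 3 and from 18.3 to 25.4 in the g*Spns1*-cKO group. The defining granule genes *Ctsg*, *Ngp*, *Camp*, *Ltf*, *Mpo* and *Elane* did not exceed 0.584 CPM in any library, and *Ctsg* had 0 counts in all. *Prtn3*, the most abundant marker of that list, stood at 1.60, 23.6 and 17.1 CPM in control replicates 1, 2 and 3. In g*Spns1*-cKO replicates 1, 2 and 3 it stood at 6.78, 7.39 and 3.28 CPM (log2 fold change -1.28, SE 1.00, adjusted p = 0.369, edgeR). The part of these cells in the *Lcn2* values was not tested.

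The short pentraxins bind phosphocholine and other ligands on damaged cells and microbes. *Crp* (1:172698055-172833031), C-reactive protein, and *Apcs* (1:172893961-172895041), serum amyloid P component, lie on chromosome 1 within 196987 bases, and their transcripts share no 50-base window. *Crp* stood at 384, 391 and 501 CPM in control replicates 1, 2 and 3, and at 356, 247 and 299 CPM in g*Spns1*-cKO replicates 1, 2 and 3. The groups did not overlap, and the controls were within 1.31-fold of each other. *Crp* was 1.41-fold lower in g*Spns1*-cKO livers (log2 fold change -0.50, SE 0.17, adjusted p = 0.0366). The call was lost without control replicate 2 or 3 (adjusted p = 0.0536 and 0.143) and without g*Spns1*-cKO replicate 2 or 3 (0.110 and 0.102). Scaled by total counts only, the log2 fold change of *Crp* was -0.05 (adjusted p = 0.796). *Apcs*, the main pentraxin of the acute phase in mice, stood at 110, 176 and 266 CPM in control replicates 1, 2 and 3, and at 188, 257 and 210 CPM in g*Spns1*-cKO replicates 1, 2 and 3. It was the only one of the 10 genes with a positive log2 fold change, 0.25 (SE 0.31, adjusted p = 0.557), and the g*Spns1*-cKO livers all fell between the lowest and the highest control.

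Control mice were widely spread in these genes, with control replicate 1 the lowest control in 10 of 10. The counts that follow thus rest largely on 1 mouse, and the genes are not independent of each other. The highest control was at least 10 times the lowest in 4 of 10 (*Saa1*, *Saa2*, *Orm2* and *Lcn2*), by 82.4, 175, 52.0 and 88.0 times, beside 2.02% of all genes tested. In g*Spns1*-cKO livers 0 of 10 reached that ratio, beside 0.673% of all genes, and the widest was 9.62 times, for *Saa2*. The median SD of log2 CPM was 1.13 over controls and 0.27 over g*Spns1*-cKO livers for the 10 genes, beside 0.17 and 0.16 over all genes tested. Controls varied more than g*Spns1*-cKO livers in 9 of 10, where 52.8% of all genes did so. Compared with control replicate 1 alone, the g*Spns1*-cKO livers were all higher for 4 of 10 genes (*Orm2*, *Hpx*, *Lcn2* and *Apcs*), which held for 38% of all genes.

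How many genes passed the test thus turned on single mice. Without control replicate 1, 9 of 10 were lower in g*Spns1*-cKO livers, with *Apcs* the exception (log2 fold change -0.03, adjusted p = 0.930), beside 17.9% of all genes tested. Without control replicate 2 or 3, 1 of 10 was lower (*Saa3*), beside 16.3 and 16% of all genes. Without g*Spns1*-cKO replicate 1, 1 was lower (*Crp*), and without g*Spns1*-cKO replicate 2 or 3, 0 were, where 20.3, 17.3 and 13.5% of all genes were. The direction of the log2 fold change was kept in all 6 of these fits for every gene but *Apcs*. Scaled by total counts only or by upper quartiles, 1 of 10 was lower (*Saa3*), beside 6.28 and 14.5% of all genes, and without a filter on low counts 2 were (*Saa3* and *Crp*), beside 12.9%. With all mice, DESeq2 called 7 of 10 lower (*Saa1*, *Saa2*, *Saa3*, *Orm1*, *Orm2*, *Hp* and *Crp*) beside 21.2% of all genes, and limma-voom called 6, the same genes without *Orm2*, beside 20.9%.

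**Figure D2:**
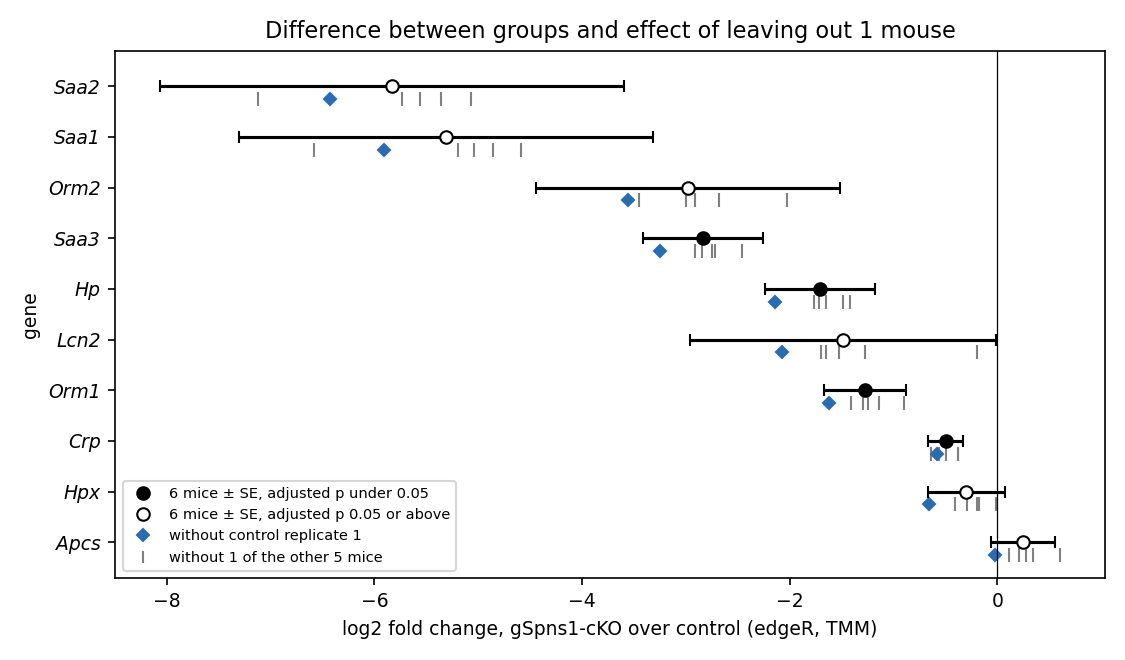
Log2 fold change, g*Spns1*-cKO over control, of the 10 acute phase genes (circles, with SE as bars). Filled circles passed an adjusted p under 0.05, blue diamonds are the fits without control replicate 1 and grey ticks those without each of the other mice. The values ran from -5.83 for *Saa2* to 0.25 for *Apcs*, and without control replicate 1 every value moved to the left.

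Read per gene length, the order of the mean levels differed between the groups, through control replicates 2 and 3. In control livers the mean FPKM was 6209 ± 3662 for *Hp*, 4927 ± 2383 for *Hpx*, 2356 ± 1193 for *Orm1*, 1215 ± 1100 for *Saa1* and 936 ± 864 for *Saa2* (SD, n = 3). *Orm2* with 211 ± 205, *Apcs* with 188 ± 81.1, *Crp* with 123 ± 19.5, *Lcn2* with 81.3 ± 89.5 and *Saa3* with 12 ± 6.97 followed. Every pair of neighbours in that order lay within the larger SD of the pair, except *Hpx* and *Orm1*. Mouse by mouse, *Hpx* was above *Orm1*, *Orm1* above *Saa1*, *Saa1* above *Saa2*, *Saa2* above *Orm2* and *Apcs* above *Crp* in 3 of 3 controls. The other neighbours changed order between control mice. In g*Spns1*-cKO livers *Hpx* came first, with 3976 ± 599 FPKM, before *Hp* with 1880 ± 154 and *Orm1* with 967 ± 185, in all 3 mice. *Apcs* with 222 ± 35.1 and *Crp* with 86.3 ± 15.9 followed in all 3. Control replicate 1 had the same first 5 genes in the same order, with 2235 FPKM for *Hpx*, 1987 for *Hp*, 1103 for *Orm1*, 111 for *Apcs* and 109 for *Crp*. In g*Spns1*-cKO livers *Saa1* and *Saa2* stood at 30.3 ± 31.2 and 16.3 ± 17 FPKM. *Saa3* was the lowest of the 10 in each g*Spns1*-cKO liver, with 1.66 ± 0.196 FPKM.

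Across the 6 libraries, the genes outside these 10 that were most like each acute phase gene were sought by Pearson's r of log2 CPM among 8008 genes whose mean was 10 CPM or more. For *Saa1* and *Saa2* these were *Hc* and *C4b*, which encode complement components, with r between 0.98 and 0.99. *Hc* was lower in g*Spns1*-cKO livers (log2 fold change -0.58, SE 0.20, adjusted p = 0.0402), and *C4b* had -0.46 (SE 0.20, adjusted p = 0.0822). *Saa3* was most like *Dyrk1a* and *Cd302*, *Hp* most like *Cyb561* and *Ifitm2*, *Orm1* most like *Ccdc85c* and *Kbtbd7*, *Orm2* most like *Tle4* and *Gtf3c4*, *Crp* most like *AW112010* and *Dtx3l*, and *Apcs* most like *Tmx1* and *Plce1*. *Hpx* and *Lcn2* shared their most alike genes outside the 10, *Strbp* and *Chtf8*, and had an r of 0.98 with each other. Pearson's r takes no account of the size of a change. *Strbp* ran from 38.8 to 43.5 CPM over the 6 libraries, whereas *Lcn2* ran from 5.33 to 469 CPM. Among the 10 genes, *Saa1* had an r of 0.998 with *Saa2*, 0.98 with *Orm1*, 0.97 with *Hp*, 0.90 with *Saa3*, 0.69 with *Lcn2* and 0.16 with *Apcs*. With 6 libraries in 2 groups, and 2 controls far above the rest, these values describe a shared order of mice and carry no test.

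Other positive acute phase genes were lower more often than higher. Of 41 tested, 18 were lower and 4 higher, with a median log2 fold change of -0.70, beside 20.5% lower and 21.3% higher of all genes tested, and control replicate 1 was the lowest control in 33 of these 41. The protease inhibitor genes *Serpina1e* and *Serpina3k* fell, by 5.54 (SE 1.30, adjusted p = 0.0292) and by 2.50 on the log2 scale (SE 0.20, adjusted p = 1.84e-05). *Serpina3k* stood at 13507, 14926 and 13960 CPM in control replicates 1, 2 and 3, without the low value of control replicate 1, and from 1904 to 2944 CPM after deletion of *Spns1*. *Serpina1e* and *Serpina3k* each belong to a family of close copies between which reads may be split. *Fga*, *Fgb* and *Fgg*, the 3 fibrinogen chains, named after their values were seen, were lower by between 0.82 and 0.98 on the log2 scale and did not overlap. The complement gene *C3* had -0.51 (SE 0.25, adjusted p = 0.130). In the other direction, *Hamp2*, a copy of the hepcidin gene, rose by 4.59 (SE 0.83, adjusted p = 0.0136) and *Cd14*, an endotoxin receptor of macrophages, by 2.50 (SE 0.37, adjusted p = 0.00122). Without control replicate 1 the counts of this list were 28 lower and 3 higher, beside 17.9 and 18.2% of all genes. Scaled by total counts only, they were 8 and 8, beside 6.28% lower and 47.2% higher of all genes.

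Negative acute phase genes were also lower, 10 of 18 tested, with 0 higher and a median of -0.57, beside the same 20.5 and 21.3% of all genes. This list shares genes with the hepatocyte markers, among them *Alb* and *Apoa2*, so its count overlaps with theirs. *Serpina7*, the thyroxine-binding globulin gene, fell by 2.90 (SE 0.43, adjusted p = 0.00450), *Apoa2* by 1.00 (SE 0.17, adjusted p = 0.00107), *Proc* by 0.82 (SE 0.13, adjusted p = 0.000805) and *Apoa1* by 0.76 (SE 0.19, adjusted p = 0.00997). Albumin (*Alb*) stood at 77348, 63646 and 66941 CPM in control replicates 1, 2 and 3, and at 37398, 43082 and 45060 CPM in g*Spns1*-cKO replicates 1, 2 and 3. That is a log2 fold change of -0.73 (SE 0.19, adjusted p = 0.0101), with no overlap and with control replicate 1 the highest. Without control replicate 1 the counts were again 10 lower and 0 higher, beside 17.9 and 18.2% of all genes. They were 3 and 3 where libraries were scaled by total counts only, beside 6.28% lower and 47.2% higher of all genes.

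Of 15 cytokine and receptor genes tested, 3 were higher and 4 lower, with a median of 0.22, shares near the 21.3% and 20.5% of all genes. Scaled by total counts only, 9 were higher and 2 lower, beside 47.2 and 6.28% of all genes. Without control replicate 1, 3 of 17 were higher and 2 lower, beside 18.2 and 17.9%. *Lifr*, the leukemia inhibitory factor receptor, was at 255, 260 and 245 CPM in control replicates 1, 2 and 3 and at 77.8, 80.8 and 86.4 CPM in g*Spns1*-cKO replicates 1, 2 and 3. It fell by 1.63 on the log2 scale (SE 0.11, adjusted p = 7.35e-06), and *Il1rap*, the accessory chain of the interleukin-1 receptor, fell by 1.37 (SE 0.11, adjusted p = 1.93e-05). *Osmr*, the oncostatin M receptor, rose by 1.21 (SE 0.20, adjusted p = 0.000963) and the cytokine gene *Clcf1* by 2.88 (SE 0.26, adjusted p = 3.43e-05), both from under 5 CPM in control livers. *Il6st*, which encodes gp130, had -0.07 (SE 0.13, adjusted p = 0.681). *Il6* had 3 counts in g*Spns1*-cKO replicate 2 and 0 in the other 5 libraries, at or under the floor of detection. *Il6ra*, named after its values were seen like *Il6*, had -0.30 (SE 0.39, adjusted p = 0.582), with 54.4, 77.7 and 115 CPM in control replicates 1, 2 and 3.

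Among 28 transcription factors and feedback genes, 5 were higher and 6 lower, with a median of 0.03, shares near the 21.3% and 20.5% of all genes. *Cebpa* and *Cebpb*, 2 of the C/EBP factors, were lower by 1.41 (SE 0.18, adjusted p = 0.000213) and by 1.25 (SE 0.17, adjusted p = 0.000486) on the log2 scale. *Cebpb* stood at 72.9, 101 and 100.4 CPM in control replicates 1, 2 and 3 and at 47.4, 33.0 and 34.7 CPM in g*Spns1*-cKO replicates 1, 2 and 3, so that control replicate 1 was the lowest control but the groups did not overlap. *Onecut1*, a liver transcription factor, fell by 1.44 (SE 0.47, adjusted p = 0.0434), *Nfkb2*, an NF-kB subunit, rose by 1.04 (SE 0.18, adjusted p = 0.00146), and *Hnf4a* had -0.42 (SE 0.17, adjusted p = 0.0666). *Stat3* and its feedback inhibitor *Socs3*, named after their values were seen, had -0.09 (SE 0.20, adjusted p = 0.760) and 0.04 (SE 0.43, adjusted p = 0.954). *Socs3* was at 3.56, 9.93 and 9.28 CPM in control replicates 1, 2 and 3 and at 5.61, 11 and 6.79 CPM in g*Spns1*-cKO replicates 1, 2 and 3. Without control replicate 1, 2 of the 28 were higher and 5 lower, beside 18.2 and 17.9% of all genes. Scaled by total counts only, 13 were higher and 2 lower, beside 47.2 and 6.28%.

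Receptors and clearance genes for acute phase ligands were mostly higher, 12 of 20 tested against 2 lower, with a median of 1.29, beside 21.3% higher and 20.5% lower of all genes. *Fpr1* rose by 2.05 (SE 0.30, adjusted p = 0.000486) and the Fc receptor *Fcgr3* by 1.86 (SE 0.29, adjusted p = 0.00140). *Hmox1*, the heme oxygenase that acts after heme uptake, was at 12.3, 17.4 and 15.2 CPM in control replicates 1, 2 and 3 and at 56.2, 55.5 and 55.5 CPM in g*Spns1*-cKO replicates 1, 2 and 3, a rise of 1.90 (SE 0.13, adjusted p = 7.56e-06). *Lrp1*, the receptor that takes up hemopexin with heme, fell by 0.74 (SE 0.17, adjusted p = 0.00677). *Scarb1*, a lipoprotein receptor that also binds serum amyloid A, had -0.05 (SE 0.16, adjusted p = 0.837). Without control replicate 1 the counts were 12 higher and 1 lower, beside 18.2 and 17.9% of all genes. Scaled by total counts only, they were 15 and 0, beside 47.2 and 6.28%.

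**Figure D3:**
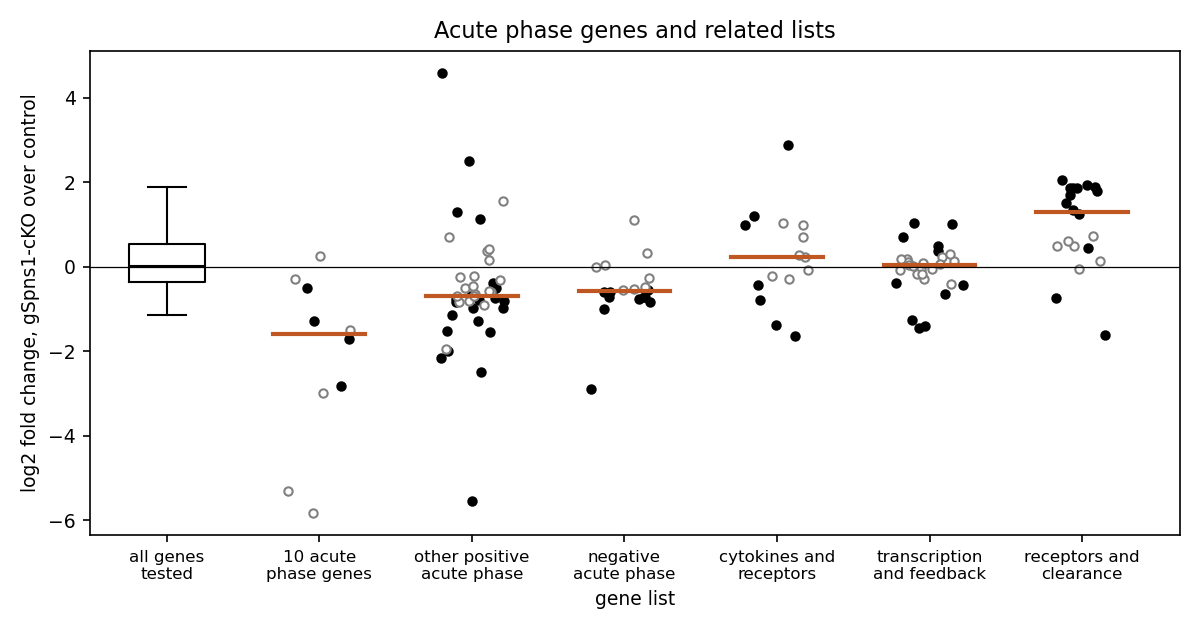
Log2 fold change of each gene tested in the 10 acute phase genes and in 5 related lists, beside all genes tested (box with quartiles and median, whiskers at the 5th and 95th percentiles). Filled points passed an adjusted p under 0.05 and orange lines are medians, from -1.60 for the 10 acute phase genes to 1.29 for receptors and clearance genes.

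Markers of several other cell types differed between the groups as well, beside 21.3% higher and 20.5% lower of all genes tested. All 15 macrophage markers were higher, with a median log2 fold change of 2.14 and summed CPM of 223 to 339 in control livers and 881 to 1251 in g*Spns1*-cKO livers. *Lyz2* rose by 2.33 (SE 0.20, adjusted p = 5.13e-05), *Cd5l* by 1.79 and *Clec4f* by 1.14. Cholangiocyte markers were higher in 7 of 9 tested, 0 lower (*Spp1*, 2.13, SE 0.22, adjusted p = 0.000209), stellate markers in 8 of 10, 0 lower (*Dcn*, 1.57, SE 0.14, adjusted p = 3.83e-05), and endothelial markers in 6 of 9, 0 lower (*Stab2*, 1.19, SE 0.11, adjusted p = 4.51e-05). Of 9 lymphocyte markers 2 were higher and 1 lower, with summed CPM under 8 and a share of higher genes near that of all genes. Of 6 erythroid markers tested 3 were higher and 1 lower, with *Tfrc* rising by 3.20 and *Alas2* falling by 3.17. Of 8 adipocyte markers 4 were tested and 4 were lower, among them *Pck1* (-1.63), *Lipe* (-1.85) and *Cidec* (-3.34), which liver also transcribes. The defining adipocyte genes *Adipoq*, *Plin1* and *Lep* were at or under 2 counts in every library. The summed CPM of the 10 acute phase genes was 8131, 31535 and 37345 in control replicates 1, 2 and 3. Control replicate 1 also had the lowest summed level of the controls for the neutrophil, macrophage, cholangiocyte (156 to 163 CPM in controls) and adipocyte lists (3018 to 4177 CPM), and not for the hepatocyte, endothelial, stellate, lymphocyte and erythroid lists. Gene by gene, it was the lowest control for 6 of 7 neutrophil and 9 of 15 macrophage markers tested, but for 1 of 9 cholangiocyte and 1 of 4 adipocyte markers. The neutrophil sum of control replicates 2 and 3 was mostly *Prtn3*, and the adipocyte sum was mostly *Pck1*, which hepatocytes transcribe (2944 CPM in control replicate 1). The part of other cell types in the acute phase values was not tested.

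**Figure D4:**
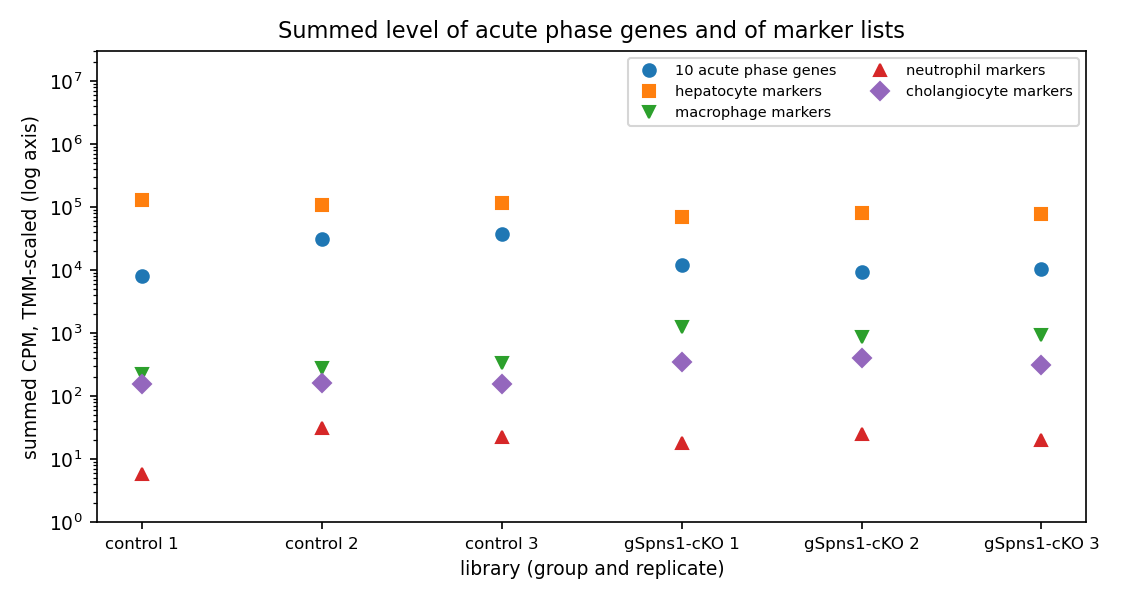
Summed TMM-scaled CPM, on a log axis, of the 10 acute phase genes and of 4 marker lists in each library. The acute phase sum was 8131 in control replicate 1, 31535 and 37345 in control replicates 2 and 3, and from 9162 to 12051 in the g*Spns1*-cKO group, while macrophage and cholangiocyte sums were higher in all g*Spns1*-cKO livers than in all controls.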

How the data were processed

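RNA-Seq of 6 mouse livers was analysed, 3 control and 3 g*Spns1*-cKO, grouped by the genotype in the labels. The authors deposited whole-number read counts per gene, not normalized, from poly-T selected RNA of each mouse without pooling; the submitters' processing notes name fastp, HISAT2 2.0.5, featureCounts 1.5.0-p3 and mm10, and the strand setting is not given in the sources used here. FPKM values that the authors deposited, which divide counts by gene length and a library total, and the deposited gene lengths were used for levels only. The authors' own group means, fold changes and p-values are also in the table and were not used. Coordinates are the table's, identical for 98.3% of 54409 genes in GENCODE M21 (GRCm38).

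Counts of 15449 genes kept by filterByExpr were tested with edgeR 4.0.16 in R 4.3.3 (TMM scaling, robust quasi-likelihood test, Benjamini-Hochberg adjustment over all genes, threshold 0.05), on all 6 libraries without covariates. SE is the log2 fold change over the square root of F, and CPM were computed with TMM-scaled library sizes. Scripts were tested on simulated data. Libraries of a group differed by more than sampling noise. P-values set the difference between the groups against the spread between these mice, which edgeR moderates across all genes tested. Floors cover counting error only. The alternatives were other scalings, filters and tests (DESeq2 1.42.0, limma-voom with limma 3.58.1), a replicate block, summed paralogs and leaving out each mouse. List counts without control replicate 1, and all counts that set this mouse apart from the other controls, were singled out after seeing the data.

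The 10 genes and all lists were chosen with earlier results of these data known. Genes named are the 10, *Spns1*, of each of 5 related lists the 4 largest changes past the threshold with at least 1 CPM and the 2 highest levels, of each marker list genes among the 3 with the highest levels, and the 2 genes most like each of the 10. *Saa4*, *Orm3*, *Il6*, *Il6ra*, *Stat3*, *Socs3*, the fibrinogen genes and markers named for being absent fall outside that rule. A gene that the rule selects is not reported here. Promoters of 8 of the 10 genes matched the RefSeq table (GRCm38.p6). No set test was run.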

Additional observations from a re-analysis of the deposited data

How the results depend on the processing

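The count of acute phase genes lower in g*Spns1*-cKO livers was 4 with TMM scaling and edgeR, beside 20.5% of all genes. It was also 4 with another scaling (RLE size factors), where 3197 of 15449 genes were lower. With at least 10 counts in every library it was 3, where 2684 of 13322 were. It was 1 by library size only and 1 by upper-quartile scaling, beside 6.28 and 14.5% of all genes. Without a filter on low counts it was 2, beside 12.9%. DESeq2 gave 7 and limma-voom 6, beside 21.2 and 20.9%. With the replicate block it was 2, where 3016 of 15449 genes were lower. Leaving out 1 mouse at a time gave from 0 to 9, the highest without control replicate 1, beside 13.5 to 20.3% of all genes. Scaled by library size only, 7289 genes were higher and 970 lower, against 3286 and 3166 by TMM, and the median log2 fold change over all genes was 0.46, against 0.14 by upper-quartile scaling and 0.01 by TMM. Leaving out 1 mouse gave 2365 to 3213 genes higher and 2125 to 3216 lower. The sign turned for *Hpx* by library size only (0.15) and for *Apcs* without 1 mouse (from -0.027 without control replicate 1 to 0.60 without control replicate 3), neither past the threshold. The sum of *Saa1* and *Saa2* passed the threshold by DESeq2 (-5.53) and limma-voom (-4.48) and ran from -6.80 to -4.78 when 1 mouse was left out. The sum of *Orm1*, *Orm2* and *Orm3* passed by DESeq2 (-1.35) and limma-voom (-1.19) and ran from -1.71 to -0.92. The cause was not tested.

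Same-numbered control and g*Spns1*-cKO mice did not deviate together from their group means (r = 0.04, 0.03 and -0.03). With 3 mice per group, such values cannot show whether mice of the same number shared a litter or a batch. With the replicate block, 3084 genes were higher and 3016 lower, *Saa3* and *Crp* passed, and *Orm1* (-1.16) and *Hp* (-1.48) did not. With 3 mice per group and 1 control far from the others, the size of the differences in *Saa1*, *Saa2*, *Orm2* and *Lcn2* is poorly fixed, whereas depth was not limiting, as each of the 10 genes had at least 138 counts in every library.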
